A study of Homo sapiens with 9 samples.

Results

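9 genes that encode membrane serine proteases and their membrane-bound inhibitors were followed in 3 groups of prostate cancer cells. They were taken by symbol from the deposited counts of 28216 genes, and all 9 were found there. 7 encode proteases (TMPRSS2, TMPRSS4, TMPRSS6, TMPRSS13, ST14, HPN and PRSS8), and 2 encode inhibitors (SPINT1 and SPINT2).

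Membrane serine proteases are made as zymogens and sit on the cell surface with the catalytic domain outside the cell. Most of these 7 belong to the type II transmembrane serine proteases, which are anchored near the N-terminus, whereas prostasin, the product of PRSS8, is held by a GPI anchor. They cleave growth factor precursors, receptors, ion channels and each other, and in epithelia their activity is limited by the Kunitz-type inhibitors HAI-1 (SPINT1) and HAI-2 (SPINT2). In the prostate, TMPRSS2 is known as an androgen-regulated gene of luminal cells and HPN as a gene that is often raised in carcinoma.

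Gene expression was measured by RNAseq in 9 libraries, 3 for each group. PC3 cells were untreated and were grown in F12K media with 10% FBS. LNCaP cells (clone FCG) spent 24 h in phenol red-free RPMI with 10% charcoal-stripped FBS and then received for 48 h either 10 nM androgen or vehicle, which was 0.01% ethanol. The labels name the androgen as DHT and the main text of the study as R1881, so it is called androgen here. Both lines are labelled epithelial and WT and derive from metastases. Each is a single line kept in its own medium, so the line and its medium cannot be told apart in any comparison with PC3. The labels do not say whether the replicates came from separate cultures, and the study's methods mention experimental batches without naming them, so p-values measure the spread between these libraries, which may be technical.

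The libraries held 17397706 to 25640325 counts on genes (median 21434125). Of the 4 epithelial markers, all were found in every group, although CDH1 was at 10.3 to 13.6 CPM (counts divided by TMM-scaled library size) in PC3 and at 528 to 695 CPM in LNCaP. In PC3, KLK2 had 0 counts and FOLH1 was at most 0.276 CPM, while HOXB13 was at 471 to 805 CPM. Of the 2 endothelial markers, CDH5 had 0 counts in all libraries and PECAM1 had 47 to 85 counts in PC3 and at most 1 in LNCaP. Of the 3 leukocyte markers, CD3E had 0 counts, and PTPRC and CD14 each had 4 to 7 counts in PC3 and at most 2 in LNCaP. Of the 3 neuroendocrine markers, CHGA had 0 counts, ENO2 was at 20.01 to 67.5 CPM and SYP at 1.44 to 5.27 CPM. Of the 4 fibroblast markers, COL1A1 was at 12.3 to 42.04 CPM, and COL1A2, DCN and LUM were at most at 1.23 CPM. PC3 replicate 3 stood apart from the other PC3 libraries (chi-square per gene of 31.5 and 54.4 against replicates 1 and 2, with 11.6 between those 2 and 2.26 to 5.53 within the LNCaP groups). Androgen-treated replicate 1 had the highest level of VIM, CAV1 and AXL among LNCaP libraries, at a summed level of all 4 PC3 markers of 21.0 CPM, against 1.65 CPM in the lowest LNCaP library and 2285 to 2516 CPM in PC3. No pair of replicates looked like a repeat deposit of 1 library.

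Levels are compared between genes in RPKM, which is CPM divided by the length in kilobases of all annotated exons of the gene. In androgen-treated LNCaP cells the order was TMPRSS2 (308 RPKM), SPINT2 (88.7 RPKM), SPINT1 (66.6 RPKM), ST14 (45.6 RPKM), HPN (45.2 RPKM), PRSS8 (39.02 RPKM) and TMPRSS13 (0.630 RPKM), with TMPRSS6 and TMPRSS4 last. In vehicle-treated cells it was SPINT2 (72.4 RPKM), SPINT1 (42.8 RPKM), ST14 (38.6 RPKM), HPN (30.5 RPKM), TMPRSS2 (27.5 RPKM), PRSS8 (26.0 RPKM) and TMPRSS13 (0.875 RPKM), again followed by TMPRSS6 and TMPRSS4. In PC3 it was SPINT2 (31.6 RPKM), SPINT1 (11.3 RPKM), TMPRSS2 (4.59 RPKM), ST14 (1.43 RPKM) and PRSS8 (0.384 RPKM), and the remaining 4 proteases were at or near 0. The ranges of the libraries overlapped for ST14 and HPN and for TMPRSS6 and TMPRSS4 under androgen, for HPN and TMPRSS2 and for TMPRSS2 and PRSS8 under vehicle, and for the 4 lowest genes in PC3. The ranges of all other neighbours in these orders were separate. The orders hold for the length of all exons, which is 4116 bases for ST14, 3383 for HPN and 2975 for PRSS8. Their longest transcripts have 3305, 2363 and 1837 bases, and the orders were not repeated with those lengths. TMPRSS2 ranked 86 of 25588 genes with a known length under androgen, 1578 under vehicle and 7522 in PC3.

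**Figure D1:**
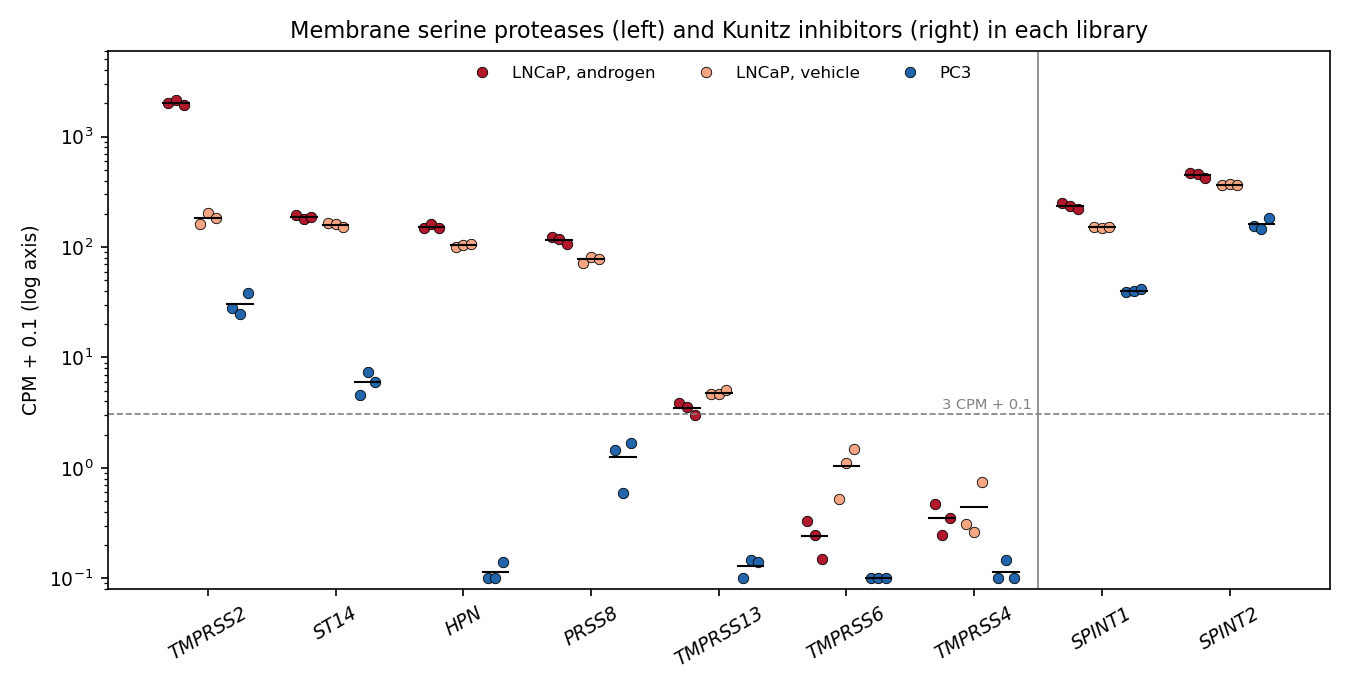
CPM plus 0.1 on a log axis for the 7 proteases and 2 inhibitors, with 1 point per library (n = 3 per group) and a line at the group mean. The dashed line marks 3 CPM. To be tested, a gene had to exceed 3 CPM in 3 libraries, computed without TMM factors, so the line is close to that limit but not equal to it. TMPRSS2 alone lies far above its vehicle level under androgen, and the blue PC3 points lie below both LNCaP groups for all 9 genes, although TMPRSS4 and TMPRSS6 are near the bottom of the axis in every group.

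The first comparison asked how the genes responded to androgen within LNCaP cells. TMPRSS2 rose 11.0-fold, whereas none of the other 6 genes with enough reads to be tested changed by 2-fold or more. TMPRSS6, which had too few reads for the test, was lower under androgen. A gene was called when edgeR's quasi-likelihood test gave an adjusted p under 0.05 (Benjamini-Hochberg over all genes tested) and the fold change was at least 2. Of the 9 genes, 7 had enough reads to be tested, and 1 of the 7 was called higher and 0 lower, where 14% of all 11697 genes tested were called (6.54% higher and 7.49% lower). All 7 had an adjusted p under 0.05 without the limit on the fold change, and so had 74.9% of all genes tested. The median log2 fold change was 0.54 over the 7 genes and -0.01 over all genes tested.

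TMPRSS2 lies on chromosome 21 at 41464300 to 41531116 (GRCh38, minus strand), and its main annotated transcript has 14 exons and encodes 492 residues. Androgen-treated libraries held 43679, 43564 and 38884 counts of it, or 2019, 2136 and 1931 CPM, and vehicle-treated libraries held 3070, 3780 and 3668 counts, or 161, 202 and 182 CPM. The 2 groups were far apart, with means of 2029 ± 103 and 181 ± 20.5 CPM (SD, n = 3). The log2 fold change was 3.45 (SE 0.08, edgeR adjusted p = 7.1e-13), which ranked 90 from the highest among the 11697 genes. Leaving out any library kept it between 3.36 and 3.54.

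Among the other proteases, ST14 encodes matriptase, which activates the precursors of HGF and of prostasin. Its gene is on chromosome 11 at 130159782 to 130210362 (plus strand), with 19 exons and 855 residues. It was at 196, 179 and 188 CPM under androgen and at 163, 163 and 151 CPM under vehicle, so that the groups did not overlap, but the difference was small (log2 fold change 0.21, SE 0.04, edgeR adjusted p = 0.000717). That p rose to 0.1 when all 9 libraries shared 1 estimate of the spread.

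HPN encodes hepsin, which cleaves the precursor of HGF, and lies on chromosome 19 at 35040506 to 35066573 (plus strand), with 13 exons and 417 residues. It was at 149, 162 and 148 CPM under androgen and at 99.2, 105 and 106 CPM under vehicle (log2 fold change 0.54, SE 0.05, edgeR adjusted p = 5.89e-07). PRSS8, which encodes prostasin, an activator of the epithelial sodium channel, lies on chromosome 16 at 31131433 to 31135727 (minus strand), with 6 exons and 343 residues. It was at 123, 117 and 107 CPM under androgen and at 72.3, 81.8 and 77.9 CPM under vehicle (log2 fold change 0.56, SE 0.06, edgeR adjusted p = 1.48e-06). For both genes every androgen-treated library was above every vehicle-treated library, by a fold of 1.45 for HPN and 1.47 for PRSS8.

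TMPRSS13, on chromosome 11 at 117900641 to 117929459 (minus strand), was the only tested protease with a lower level under androgen. It had 82, 70 and 59 counts with androgen and 87, 86 and 100 counts with vehicle, which corresponds to 3.79, 3.43 and 2.93 CPM and to 4.55, 4.59 and 4.96 CPM. The log2 fold change was -0.50 (SE 0.14, edgeR adjusted p = 0.00529), short of 2-fold.

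TMPRSS6 encodes matriptase-2, a liver protease known for lowering hepcidin, and TMPRSS4 encodes a protease studied in epithelial tumours. Neither passed the filter on low values, so neither is part of the counts above. TMPRSS6 (chromosome 22, 37065436 to 37109713, minus strand) had 5, 3 and 1 counts under androgen and 8, 19 and 28 counts under vehicle. The groups did not overlap, and the summed level under vehicle was 6.55 times that under androgen, with a 95% interval of 3.21 to 15.1 that covers counting error only. In a fit without the filter its log2 fold change was -2.67 (edgeR adjusted p = 0.000126). TMPRSS4 (chromosome 11, 118077012 to 118121890, plus strand) had 8, 3 and 5 counts under androgen and 4, 3 and 13 under vehicle, which overlapped, and a difference was not detectable at this depth (edgeR without the filter, adjusted p = 0.567).

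The 2 inhibitors were both higher under androgen, each by less than 2-fold. SPINT1 lies on chromosome 15 at 40844018 to 40858207 (plus strand), with 11 exons and 513 residues. It was at 251, 234 and 223 CPM under androgen and at 153, 150 and 152 CPM under vehicle (log2 fold change 0.61, SE 0.04, edgeR adjusted p = 1.82e-08). SPINT2 lies on chromosome 19 at 38244035 to 38292615 (plus strand), with 7 exons and 252 residues. It was at 465, 461 and 426 CPM under androgen and at 368, 371 and 366 CPM under vehicle (log2 fold change 0.26, SE 0.04, edgeR adjusted p = 4.34e-05). Counting all 7 tested genes, 6 had every androgen-treated library above every vehicle-treated library, as had 40.2% of all genes tested, and TMPRSS13 had the reverse order, as had 36.6%.

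**Figure D2:**
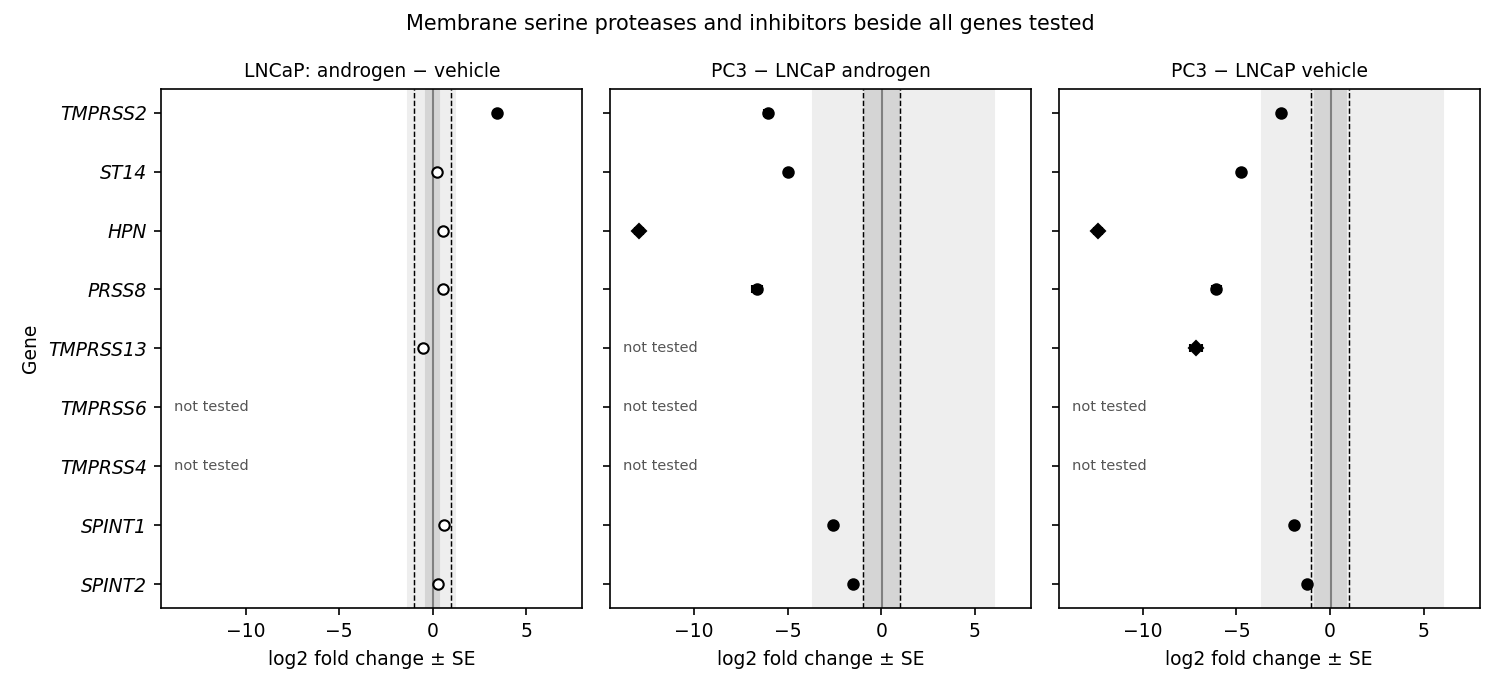
Log2 fold changes (± SE) of each gene in the 3 comparisons, with filled symbols for called genes and open symbols for genes not called. The SE is the absolute log2 fold change divided by the square root of edgeR's F statistic. It can be too small for genes near 0 counts. For HPN in PC3 against androgen-treated cells it was 0.213, whereas the DESeq2 Wald test gave an SE of 1.18. Light and dark grey bands hold the middle 90% and 50% of all genes tested, dashed lines mark 2-fold, and diamonds mark genes with at most 3 counts in PC3, whose fitted size is not a bound. Under androgen only TMPRSS2 leaves the light band, and in both comparisons with PC3 all tested genes lie to the left of the dashed line.

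The other comparisons set PC3 cells against LNCaP cells with androgen and with vehicle. They share the PC3 libraries, and each shares its LNCaP libraries with the first comparison. All tested proteases and both inhibitors were lower in PC3, and the proteases differed by more than the inhibitors. Against androgen-treated cells, 6 of the 9 genes were tested and 6 were called lower, where 46% of all 12541 genes tested were called and 22.1% were called lower. Against vehicle-treated cells, 7 were tested and 7 were called lower, where 43.2% of all 12686 genes were called and 21% were called lower. A gene that is near 0 in PC3 could enter these counts only through its LNCaP level. Median log2 fold changes were -5.54 and -4.78 for the tested genes, against 0.04 and 0.03 for all genes. In bulk RNA, fewer cells that express a gene and less RNA per cell cannot be told apart.

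HPN had 0, 0 and 1 counts in the PC3 libraries, against 2986 to 3303 counts with androgen and 1896 to 2129 counts with vehicle. The summed level with androgen was 11127 times that in PC3, with a 95% counting interval of 1997 to 439544. With vehicle it was 7516 times, with an interval of 1348 to 296898. The gene was called lower in both comparisons (edgeR adjusted p = 7.75e-09 and 1.06e-08), and the fitted size is not given because it depends on the prior count of the fit.

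PRSS8 had 34, 11 and 40 counts in PC3, or 1.36, 0.495 and 1.57 CPM, and differed by -6.65 (SE 0.25, edgeR adjusted p = 1.45e-07) from androgen-treated cells on the log2 scale and by -6.07 (SE 0.26, edgeR adjusted p = 2.76e-07) from vehicle-treated cells. ST14 had 112, 162 and 151 counts, or 4.47, 7.28 and 5.94 CPM, and differed by -5.01 (SE 0.16, edgeR adjusted p = 6.31e-08) and -4.78 (SE 0.16, edgeR adjusted p = 8.2e-08). For all tested members every PC3 library was below every LNCaP library of the comparison. Of all genes tested, 42.2% had this order against androgen-treated cells and 41.4% against vehicle-treated cells. TMPRSS4 and TMPRSS6, and TMPRSS13 against androgen, were not tested and so lie outside these shares. They had the same order, for TMPRSS4 and TMPRSS6 at few counts in every group.

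TMPRSS2 had 703, 544 and 974 counts in PC3, or 28.0, 24.5 and 38.3 CPM, a mean of 30.3 ± 7.20 CPM (SD, n = 3). It was therefore the protease with the highest level in PC3 and the tested protease with the smallest difference from vehicle-treated cells, at -2.60 on the log2 scale (SE 0.18, edgeR adjusted p = 3.32e-06). From androgen-treated cells it differed by -6.08 (SE 0.19, edgeR adjusted p = 6.95e-08). KLK3, the gene for prostate-specific antigen, had 2, 2 and 20 counts in PC3, which is 0.00187 to 0.0185% of its level in androgen-treated cells. At the same share, TMPRSS2 would have had 0.952, 0.952 and 9.52 counts in the 3 PC3 libraries, and HPN 0.0718, 0.0718 and 0.718 counts. These values rest on KLK3 alone, at few counts. The source of the TMPRSS2 and HPN reads in PC3 was not tested.

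TMPRSS13 had 0, 1 and 1 counts in PC3. Its summed level was 123 times higher with androgen (95% counting interval 33.7 to 1026) and 171 times higher with vehicle (46.9 to 1420). It was tested and called only against vehicle-treated cells (edgeR adjusted p = 4.15e-07), because under androgen it did not exceed 3 CPM in all 3 libraries. TMPRSS6 had 0 counts in every PC3 library, and 3 counts, taken as the limit that a count of 0 allows in 1 library, place its PC3 level at least 6.97-fold lower than the vehicle level. No fold is given against androgen, where its level was itself near that limit. TMPRSS4 had 0, 1 and 0 counts in PC3, and its summed level was 18.7 times higher with androgen (2.91 to 785) and 25.1 times higher with vehicle (4.01 to 1039).

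SPINT1 and SPINT2 had the smallest differences between the lines among the tested genes. SPINT1 had 978, 880 and 1054 counts in PC3, a mean of 40.02 ± 1.30 CPM (SD, n = 3). This gave log2 fold changes of -2.57 against androgen-treated cells (SE 0.07, edgeR adjusted p = 3.47e-08) and -1.94 against vehicle-treated cells (SE 0.06, edgeR adjusted p = 4.84e-08). SPINT2 was at 154, 144 and 185 CPM, which gave -1.50 (SE 0.10, edgeR adjusted p = 3.32e-06) and -1.22 (SE 0.10, edgeR adjusted p = 9.35e-06). Without PC3 replicate 3, the library that stood apart, all tested genes were still called lower, with SPINT2 at -1.63 and -1.35, TMPRSS2 at -6.30 and -2.84 and ST14 at -5.04 and -4.82. HPN had 0 counts in the remaining 2 libraries.

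The sequences upstream of HPN, the gene nearest to 0 in PC3 among those with a high level in LNCaP, and of SPINT1, an inhibitor found in both lines, are shown to compare their CpG content. RefSeq promoters (GRCh38.p14) were matched for these 2 of the 9 genes, and TMPRSS2, TMPRSS4, TMPRSS6, TMPRSS13, ST14, PRSS8 and SPINT2 were not matched. Capitals mark CpG dinucleotides, the sites of DNA methylation, which was not measured here. The HPN window, chr19:35041471-35041720 on the plus strand, covers the 250 bases before the RefSeq start and lies in an intron of the longer annotated HPN transcripts. The SPINT1 stretch, chr15:40843798-40844017 on the plus strand, is printed up to the base before the first annotated exon and lies in SPINT1-AS1, an antisense gene.
HPN: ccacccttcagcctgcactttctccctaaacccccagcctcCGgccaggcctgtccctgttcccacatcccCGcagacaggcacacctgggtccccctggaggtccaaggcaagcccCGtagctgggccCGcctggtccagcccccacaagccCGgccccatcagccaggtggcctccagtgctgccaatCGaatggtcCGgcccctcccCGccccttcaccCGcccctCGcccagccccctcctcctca
SPINT1: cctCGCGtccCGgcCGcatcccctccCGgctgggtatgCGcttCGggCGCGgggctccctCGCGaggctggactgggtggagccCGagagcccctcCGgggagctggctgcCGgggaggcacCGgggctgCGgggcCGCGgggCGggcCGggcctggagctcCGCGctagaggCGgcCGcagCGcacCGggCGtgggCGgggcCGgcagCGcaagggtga
The HPN window held 10 CpG and 70.4% G or C. The whole 250-base window of SPINT1 held 35 CpG and 80.4% G or C, more CpG than 94.2% of the 35116 promoters of the same length, for which the medians were 11 CpG and 58% G or C. A second annotated start of SPINT1 held 22 CpG. The letters of 4 short motifs were searched for on both strands, and 3 of them are given here. GGGCGG, the Sp1 box, was found 2 times for HPN, 3 times for the first SPINT1 start and 0 times for the second. It was in 42.6% of all promoters. CACCTG, an E-box, was found 2 times for HPN, 0 times for the first SPINT1 start and 1 time for the second. It was in 17.5% of all promoters. AACCNGTT, the grainyhead motif, was in none of these windows and in 1.49% of all promoters. A match of letters is a description of the window and not evidence of binding.

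To set the proteases beside their inhibitors, the RPKM of all 7 proteases were summed in each library. This sum was compared with the sum of SPINT1 and SPINT2. Protease transcripts summed to 438 ± 18.2 RPKM under androgen, 124 ± 5.63 RPKM under vehicle and 6.42 ± 1.20 RPKM in PC3 (SD, n = 3). Inhibitor transcripts summed to 155 ± 7.86, 115 ± 0.506 and 42.9 ± 4.49 RPKM in the same order. The ratio of the 2 sums was 2.83 ± 0.0992 under androgen, 1.07 ± 0.0503 under vehicle and 0.149 ± 0.0120 in PC3, and the ranges of the 3 groups did not overlap. TMPRSS2 made up 70.2% of the protease sum under androgen, 22.2% under vehicle and 71.2% in PC3. Without TMPRSS2 the protease sums were 130.5, 96.3 and 1.83 RPKM. SPINT2 made up 57.1%, 62.9% and 73.6% of the inhibitor sum. The sums, shares and ratios also depend on the gene length used, and they were not repeated with another length.

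**Figure D3:**
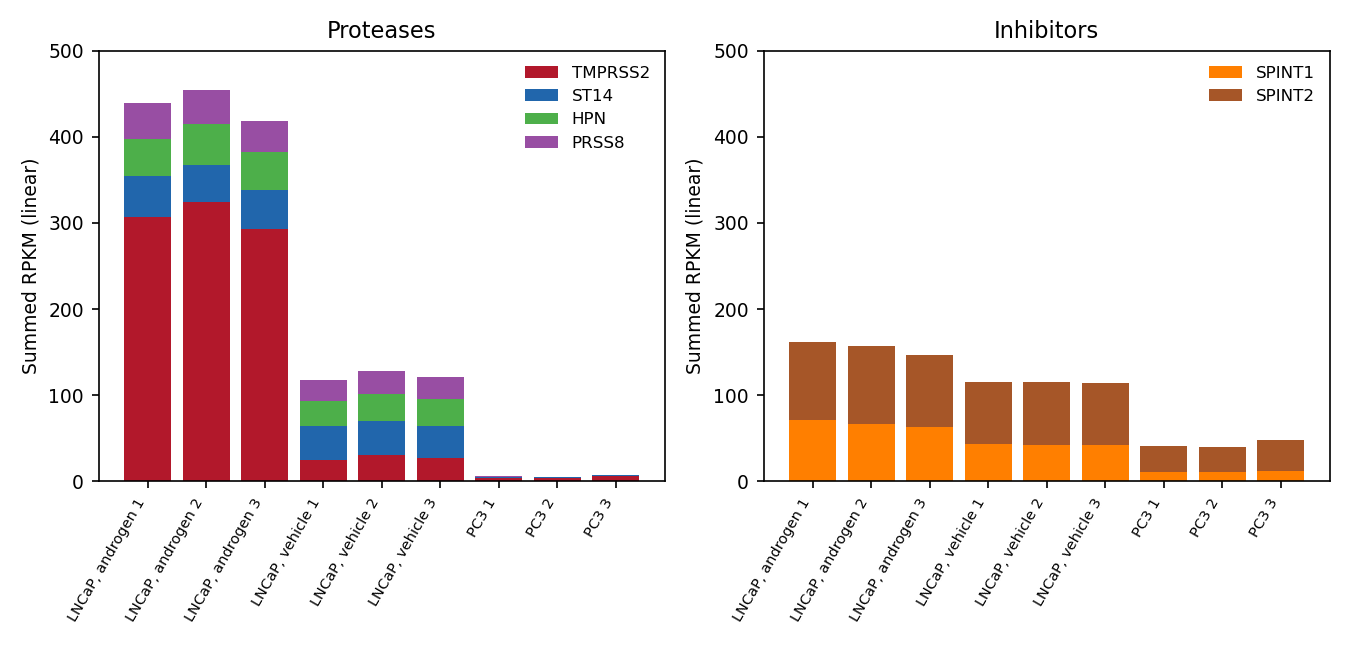
Stacked RPKM of 4 proteases, TMPRSS2, ST14, HPN and PRSS8 (left), and of the 2 inhibitors (right) in each of the 9 libraries. Axes are linear and start at 0. The sum of all 7 proteases, including those not drawn, is between 419 and 456 RPKM with androgen, mostly TMPRSS2. It is between 119 and 130 RPKM with vehicle and at most 7.81 RPKM in PC3, while the inhibitor sum stays between 39.6 and 162 RPKM.

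A ratio of genes within a library does not depend on how libraries are scaled to each other. The log2 ratio of ST14 to SPINT1, in reads per kilobase, was -0.55 ± 0.07 with androgen, -0.15 ± 0.07 with vehicle and -3.01 ± 0.34 in PC3 (SD, n = 3). All 3 androgen-treated libraries (-0.57, -0.61 and -0.47) were below all vehicle-treated ones (-0.13, -0.09 and -0.23). The ratio of ST14 to SPINT2 was -0.96 ± 0.09, -0.91 ± 0.06 and -4.49 ± 0.42, and here the 2 LNCaP groups overlapped. The ratio of TMPRSS2 to SPINT2 went from -1.40 ± 0.16 with vehicle to 1.80 ± 0.05 with androgen and was -2.80 ± 0.15 in PC3. These ratios are of transcripts and were not tested, as the genes were chosen with results known.

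**Figure D4:**
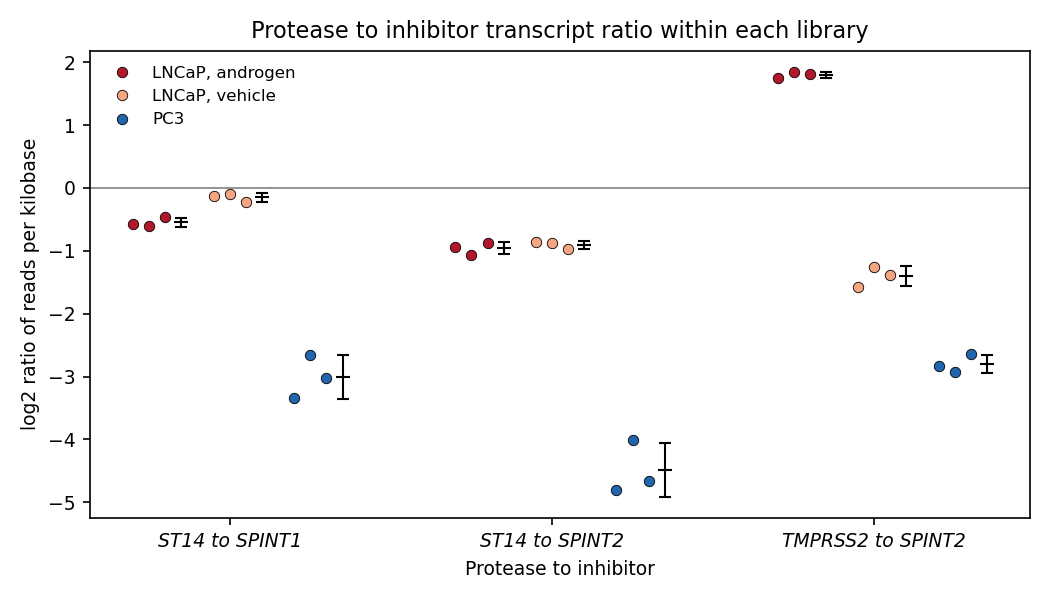
Log2 ratio of reads per kilobase of a protease to an inhibitor within each library, with the 3 libraries of a group as points and the group mean ± SD beside them; a value of 0 means equal levels. The PC3 points are the lowest for all 3 ratios, and the LNCaP groups overlap only for ST14 to SPINT2.

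The genes around these members in the same pathways were described by 3 lists. Of 18 other membrane serine proteases, 2 were tested between the LNCaP groups, and only 1, TMPRSS11E, was called higher with androgen (4.21 against 1.86 CPM, log2 fold change 1.14, edgeR adjusted p = 3.25e-05). It was called lower in PC3 than in androgen-treated cells, with 1 count in PC3. DPP4, a dipeptidyl peptidase of another protein fold, was higher in PC3, at 187 CPM against 13.9 CPM with androgen and 7.28 CPM with vehicle. 7 genes of this list (TMPRSS11A, TMPRSS12, PRSS21, PRSS41, PRSS55, TPSG1 and FAP) had 0 counts in all 9 libraries. The 2 that were tested had a median log2 fold change of 1.02 with androgen, against -0.01 over all genes tested. Of all genes tested, 6.54% were called higher with androgen. In PC3, 24% were called higher and 22.1% lower against androgen-treated cells, and 22.2% and 21% against vehicle-treated cells.

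The second list held 17 other genes from families of protease inhibitors, not all of which need inhibit trypsin-like proteases. Between the LNCaP groups 6 were tested, with 1 called higher and 2 called lower under androgen (median log2 fold change -0.12). The shares of all genes tested were 6.54% and 7.49%. SERPINB8 was higher at 8.64 against 2.14 CPM. SERPINB5, which encodes maspin, was lower at 4.11 against 10.9 CPM, and TFPI, the inhibitor of the tissue factor pathway, was lower at 43.6 against 91.6 CPM. In PC3, 8 were tested in each comparison and 5 were called higher, with 0 called lower against androgen-treated cells and 1 against vehicle-treated cells (medians 4.12 and 4.50). SERPINE2, which encodes a nexin that inhibits thrombin and urokinase, was at 147 CPM in PC3 against 5.32 and 2.64 CPM with androgen and vehicle, TFPI2 at 80.3 CPM against 0.266 and 0.103 CPM, and SERPINB5 at 128 CPM against 4.11 and 10.9 CPM. Of all genes tested, 24% and 22.2% were called higher in PC3 in the 2 comparisons.

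Of 20 substrates and receptors of these proteases, 10 were tested between the LNCaP groups, with 2 called higher and 3 lower under androgen (median 0.07), beside 6.54% and 7.49% of all genes tested. F2RL1, which encodes the protease-activated receptor PAR2, was higher with androgen at 113 against 32.0 CPM (log2 fold change 1.79, SE 0.05, edgeR adjusted p = 2.8e-12), and SCNN1G, a subunit of the epithelial sodium channel, was higher at 13.9 against 4.87 CPM. FN1, which encodes fibronectin, was lower at 109 against 424 CPM (log2 fold change -1.99, SE 0.06, edgeR adjusted p = 5.21e-12). MET, the receptor of HGF, was called lower (log2 fold change -1.28, edgeR adjusted p = 0.017), but it had 17 to 99 counts in the androgen-treated libraries and rested on single libraries. Without androgen-treated replicate 1, which held 99 counts and the highest level of PC3 markers, it was at -2.51, and the call was lost without androgen-treated replicate 2 or 3 or vehicle-treated replicate 1. The part of the marker genes in this result was not tested.

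Between the lines, 14 of the 20 were tested in each comparison, and 9 were called higher and 4 lower in PC3 (medians 2.50 and 2.77). Of all genes tested, 24% and 22.2% were called higher in the 2 comparisons and 22.1% and 21% lower, so the share called lower was near that of all genes. MET was at 1072 CPM in PC3 against 2.13 CPM with androgen and 5.16 CPM with vehicle. PLAU, which encodes urokinase, was at 515 CPM against 1.11 and 0.398 CPM, and MST1R, the receptor of the HGF-like protein MST1, at 73.1 CPM against 0.432 and 0.328 CPM. SCNN1A, the alpha subunit of the sodium channel, had the opposite direction and was at 1.34 CPM in PC3 against 137 and 110 CPM. Leaving out replicate 1 of a LNCaP group moved the log2 fold change of PLAU in PC3 from 8.79 to 11.9 against androgen and from 10.3 to 12.6 against vehicle. Without androgen-treated replicate 1, TFPI2 moved from 8.16 to 9.57 and MET from 8.93 to 10.2 against androgen, and without vehicle-treated replicate 1, MST1R moved from 7.76 to 8.41 against vehicle. These genes stayed called higher in PC3 with any library left out.

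The genes with a pattern most like 4 of the members over the 9 libraries were found by the root mean square difference of log2(CPM + 0.1), centred on each gene's mean, among 12843 genes. For TMPRSS2 these were ACSM1 (difference 0.185), AZGP1P1 (0.307) and SLC45A3 (0.324). SLC45A3 was at 1298 CPM with androgen, 77.7 CPM with vehicle and 13.3 CPM in PC3, whereas ACSM1 and AZGP1P1 were near 0 in PC3, so the offset of 0.1 sets their values there. For ST14 they were MCF2L-AS1 (0.117), DHRS13 (0.146) and MMP15 (0.158). MCF2L-AS1 was at 9.02 CPM with androgen, 7.83 CPM with vehicle and 0.169 CPM in PC3, so the offset of 0.1 also weighs on its value in PC3. For SPINT1 they were DCXR (0.0654), GRHL1 (0.0729) and DDI2 (0.0751), and for SPINT2 they were PWWP2B (0.0516), FAM83H (0.0654) and TMBIM6 (0.0754). MMP15 was at 98.6, 76.4 and 2.70 CPM and GRHL1 at 34.1, 22.5 and 5.99 CPM with androgen, with vehicle and in PC3.

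Some reads of these genes could also come from elsewhere. Of all 74-base stretches of their annotated transcripts, 11.7% for SPINT2, 6.99% for PRSS8, 5.73% for TMPRSS2 and 5.24% for HPN also occur in another transcript or elsewhere in the genome, 0.735% for SPINT1 and 0.36% for TMPRSS4, and 0% for ST14, TMPRSS6 and TMPRSS13. SPINT2 overlaps an unnamed gene on its own strand (ENSG00000267748), so its counts are uncertain to that extent. TMPRSS2, HPN and SPINT1 overlap MX1, HPN-AS1 and SPINT1-AS1 on the opposite strand. TMPRSS4 overlaps SMIM35 there, SPINT2 overlaps PPP1R14A and an unnamed gene, and TMPRSS6 and PRSS8 each overlap an unnamed gene. The counts used strand.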

How the data were processed

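RNA of 9 libraries (3 each of PC3, androgen-treated LNCaP and vehicle-treated LNCaP cells) was sequenced as single-end reads of 74 nt. The authors trimmed the reads with cutadapt (4.1), aligned them to hg38 with STAR (2.7.7a), removed PCR duplicates by their molecular identifiers with UMI-tools (1.1.2) and mapped the rest again, with versions from the submitters' processing notes. The authors deposited counts, whole numbers of reads per gene symbol without normalization. All 253944 values of their table equal the forward-strand STAR counts, and the gene annotation behind them is not given in the sources used here. Reads that fell on no gene (20.3% to 25.4% per library) stayed out of library sizes. All 9 columns were used.

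The members and gene lists were chosen with earlier results of these data known. Genes with more than 3 CPM in at least 3 libraries of a fit were tested with edgeR 4.0.16 (R 4.3.3, TMM factors, quasi-likelihood F test), each comparison on its own 6 libraries, with p-values adjusted over all tested genes (Benjamini-Hochberg). Called genes had an adjusted p under 0.05 and differed at least 2-fold. The SE of a log2 fold change is its absolute value divided by the square root of the F statistic. The study's likelihood ratio test had a batch term, which was left out because the batches are not named. Printed CPM were scaled with TMM factors of the 9 libraries together, and RPKM divide them by the exon length of GENCODE 44 (GRCh38). The 3 CPM filter for testing used library totals without TMM factors. A count of 0 was given a limit of 3 counts, which is 0.118 to 0.160 CPM, and ratios of few counts have exact 95% binomial intervals. Intervals and limits cover counting error only. The tests were tested on simulated data.

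Named genes were the 9 members, in each list and comparison at most 4 called genes with the largest fold change and more than 3 CPM in every library of a group, and the 3 genes nearest in pattern to TMPRSS2, ST14, SPINT1 and SPINT2. Some genes that the rule or the marker lists cover are not reported here, while counts over the lists include them. The list genes at 0 counts and CDH1 and other markers are named outside this rule. Replicate numbers are shared between groups. In their deviations from the group means, same-numbered androgen-treated and vehicle-treated libraries correlated with 0.165, 0.230 and 0.207 over 10910 genes. Differently numbered libraries of these 2 groups correlated with -0.250 to 0.0860. PC3 replicate 3 and androgen-treated replicate 1 reached 0.219, so values of this size do not establish that the numbers pair LNCaP libraries. No label gives a pairing. The main fits held no pairing, and a block for the replicate number was tried as an alternative. Alternatives were DESeq2 1.42.0 size factors and Wald test, edgeR's likelihood ratio test, a block for the replicate number, other filters and thresholds, unstranded counts, 1 fit of all libraries, another gene length and leaving out each library.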

Additional observations from a re-analysis of the deposited data

Results flagged for a closer look

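Reads on the strand opposite to each gene were not part of the main comparisons and entered only the alternative with unstranded counts. Among the proteases and inhibitors, 5 had more than 3 such reads in every androgen-treated library. For 2 of the 5 they were higher in every androgen-treated than in every vehicle-treated library. The same order held for 1162 of 5358 genes (21.7%) that met this minimum among all genes tested. The minimum was set on androgen-treated libraries alone, so it favours this order in both shares. TMPRSS2 had 79 to 131 such reads per library under androgen, a mean of 5.08 CPM, and 1 to 11 under vehicle, a mean of 0.395 CPM. They were 0.181 to 0.299% of the reads of the gene under androgen and 0.0326 to 0.299% under vehicle, and MX1 overlaps TMPRSS2 on that strand. HPN had 9 to 17 such reads under androgen, a mean of 0.674 CPM, and 5 to 7 under vehicle, a mean of 0.292 CPM. For HPN the shares were 0.272 to 0.533% and 0.253 to 0.328%, and HPN-AS1 lies on that strand. The difference on this strand was not tested.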

How the results depend on the processing

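The 20 fold changes of single genes kept their direction under all 317 alternatives. In 311 they also kept their side of the threshold, and the other 6 are the genes under 2-fold with androgen, which pass when the adjusted p alone decides. Counts of called genes were 1641 for androgen against vehicle, 5773 for PC3 against androgen and 5485 for PC3 against vehicle. They became 8763, 10530 and 10577 with the adjusted p alone and 2941, 9147 and 8713 with no filter on low counts, where more genes are tested. Leaving out 1 library gave 1601 to 1686, 5717 to 5830 and 5415 to 5616 called genes. With the replicate number as a block, the counts were 1638, 5756 and 5495, and no call of a protease or inhibitor changed. For PC3, same-numbered libraries correlated with -0.06, 0.06 and -0.19 against androgen and with 0.08, -0.20 and -0.02 against vehicle. No pairing of PC3 with LNCaP libraries by number was seen in these values. With the length of the longest transcript, the log2 ratio of ST14 to SPINT1 was -0.44 with androgen and -0.045 with vehicle, that of ST14 to SPINT2 was -1.06 and -1.01, and that of TMPRSS2 to SPINT2 was 2.07, -1.13 and -2.53 with androgen, with vehicle and in PC3. HPN (both comparisons with PC3) and TMPRSS13 (PC3 against vehicle) have no value when at least 10 counts are required in every library. Depth limits TMPRSS4 and TMPRSS6, which were near the limit of 3 counts in several libraries.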
